A study of Mus musculus with 2 samples.

Results

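The platelet-derived growth factor (PDGF) family was represented by 6 genes, namely the ligand genes Pdgfa, Pdgfb, Pdgfc and Pdgfd and the receptor genes Pdgfra and Pdgfrb. They were chosen by symbol, and all 6 were listed in both libraries, among the 19219 genes listed in both. Their transcripts were followed across the cell classes of normal and fibrotic liver to see which cells held ligand RNA and which held receptor RNA.

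PDGF ligands are secreted as dimers that bind receptor tyrosine kinases on mesenchymal cells. Pdgfa and Pdgfb are secreted in active form, whereas Pdgfc and Pdgfd carry an extra CUB domain that proteases must remove first. In the injured liver PDGF is best known as a mitogen of hepatic stellate cells (HSCs), the vitamin A-storing pericytes that turn into matrix-producing myofibroblasts (MFs).

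Hepatic nonparenchymal cells (NPCs) came from 2 male C57BL/6 mice, 8 weeks old, of which 1 received olive oil (normal liver, quiescent state) and 1 received the hepatotoxin CCl4 (liver fibrosis). Both were injected i.p. 2 times a week for 6 weeks. The livers were dissociated by collagenase perfusion, hepatocytes were removed by low-speed centrifugation, and 1 single-cell 3′ library was made from each liver. With 1 mouse per condition there is no replicate and no test, and mouse, library and treatment cannot be told apart.

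The normal library held 8130 cells and 44062632 unique molecular identifiers (UMIs), and the fibrosis library held 6437 cells and 53288463 UMIs. After cells with at least 10% mitochondrial UMIs were left out, 7471 and 6132 cells remained. Before that filter the median cell had 4144.5 UMIs in the normal library and 5619 in the fibrosis library, and 15 cell barcodes occurred in both. Hepatocyte-like cells were still present, 1082 and 145 of the cells kept. Levels are given as a gene's UMIs per 10000 UMIs of all cells of a class, which corrects for depth, with exact Poisson 95% intervals in parentheses. Because 1 end of each transcript is counted, these levels need no correction for gene length. Intervals of shares are exact binomial and those of ratios exact conditional, and all of them cover counting error only, not the spread between mice. Classes were named from marker genes, so each name means only that the cells carried those markers, as "-like" states.

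The mesenchymal cells, which matter most for the receptors, formed 3 classes. HSC/MF-like cells numbered 119 in normal and 416 in fibrotic liver, portal fibroblast (PF)-like cells 44 and 76, and mesothelial-like cells 45 and 80. Over 2 times the level of all other cells was reached by 20 and 23 of 24 HSC/MF markers, by 10 and 12 of 12 mesothelial markers, and by 13 of 14 PF markers in the normal but 9 of 14 in the fibrosis library. The PF-like class of fibrotic liver was thus the weakest match to its label, and its leading genes were Ltbp2, Mfap4 and Col6a6. The HSC/MF marker list stood at 378 and 664 UMIs per 10000 in PF-like cells of normal and fibrotic liver, against 302 and 305 in HSC/MF-like cells. Fibrosis cells of these classes were also deeper, with medians of 19664.5 against 10694 UMIs in HSC/MF-like cells and 17153 against 7071.5 in PF-like cells. Ratios per cell are therefore given beside ratios per 10000 UMIs where the direction differs. Lymphoid cells (B, T and NK cell-like, 1583 and 1075 cells, medians of 3147 and 2376 UMIs) served as the background for genes that lymphocytes should lack.

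In both libraries the receptors sat in mesenchymal cells and the ligands mostly outside them, except for Pdgfa in fibrosis, of which mesenchymal cells held 51.6%. These 3 mesenchymal classes made up 2.78% of normal and 9.33% of fibrosis cells. They held 91.4% (88.7 to 93.7) of the 514 Pdgfra UMIs of the normal library and 92.2% (91.26 to 92.98) of the 3849 of the fibrosis library. For Pdgfrb they held 92.3% (89.7 to 94.5) of 508 UMIs and 86.3% (85.3 to 87.3) of 4681 UMIs. By contrast, cholangiocyte-like cells held 47.2% of Pdgfa, 67.6% of Pdgfc and 50.8% of Pdgfd UMIs in the normal library, and endothelial-like cells held 41.6% of Pdgfb UMIs. In the fibrosis library these shares were 15.6%, 25.2% and 35.7%, and 19.97%. Of the Pdgfd UMIs of that library mesenchymal cells held 28.3% and endothelial-like cells 25.7%.

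**Figure D1:**
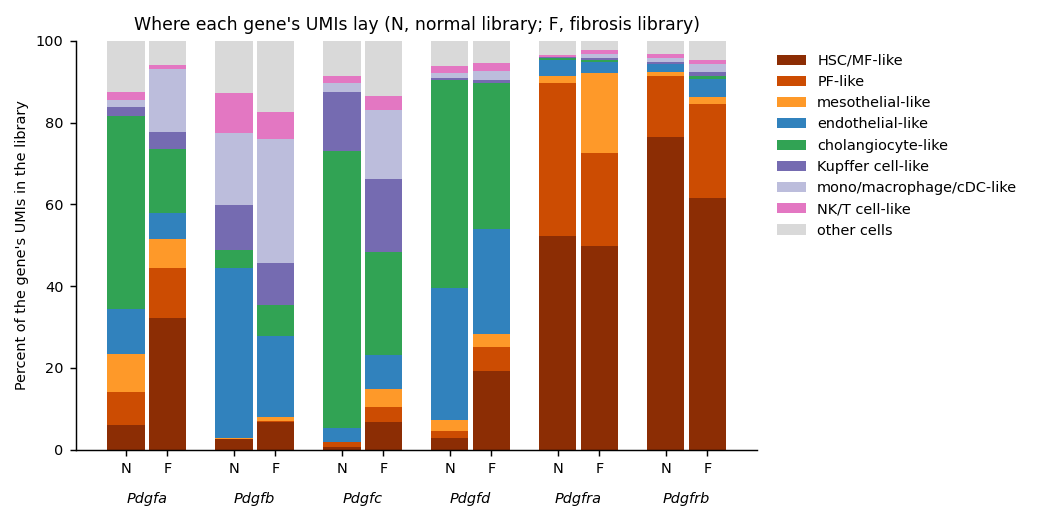
Stacked bars give the percent of each gene's UMIs that lay in each cell class (y axis, 0 to 100%), with 1 bar for the normal (N) and 1 for the fibrosis (F) library per gene. Brown and orange classes are mesenchymal and fill 91.4% and 92.2% of the Pdgfra bars, while green (cholangiocyte-like) fills 67.6% of the normal Pdgfc bar and 25.2% of the fibrosis one.

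The sources of Pdgfa shifted between the libraries. In normal liver, cholangiocyte-like cells held 47.2% and mesenchymal cells 23.4% of all Pdgfa UMIs, whereas in fibrotic liver mesenchymal cells held 51.6%. The mesenchymal classes held 208 and 572 cells, and their joint Pdgfa level was 0.871 and 0.512 UMIs per 10000. Per cell these classes held 0.957 and 1.14 UMIs of Pdgfa (ratio 1.19), against a ratio of 0.588 (0.501 to 0.693) per 10000 UMIs. The larger share thus came with more recovered and deeper cells, and with a lower level per 10000 UMIs.

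Pdgfa (ENSMUSG00000025856, chr5:138976014-138997370, minus strand, GRCm38) was highest in PF-like cells in the normal library and just below cholangiocyte-like cells in the fibrosis library, at 1.96 (1.52 to 2.48) UMIs per 10000 in normal and 1.03 (0.874 to 1.21) in fibrotic liver. The fibrosis over normal ratio was 0.527 (0.393 to 0.712) per 10000 UMIs but 1.34 per cell, so the direction depended on whether depth was corrected. In the normal class 18 of 67 UMIs came from 1 cell and 41.8% from 3 cells. Without the 3 cells with most Pdgfa in each library the ratio was 0.706 (0.489 to 1.04), an interval that reached 1. Mesothelial-like cells followed at 1.39 (1.10 to 1.73) and 0.521 (0.419 to 0.639), a ratio of 0.374 (0.274 to 0.512) and of 0.640 per cell. Cholangiocyte-like cells held 1.27 (1.15 to 1.40) and 1.09 (0.946 to 1.26), a ratio of 0.862 (0.723 to 1.02) and of 1.28 per cell. In normal liver the mesothelial-like interval overlapped both others, which did not overlap each other, and in fibrotic liver those of PF-like and cholangiocyte-like cells overlapped. HSC/MF-like cells came next at 0.380 and 0.428 (ratio 1.13, 0.843 to 1.53).

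Myeloid cells held little Pdgfa in normal liver and more in fibrotic liver. In the monocyte, macrophage and dendritic cell-like class the level was 0.0355 (0.0194 to 0.0595) and 0.202 (0.175 to 0.232) UMIs per 10000, a ratio of 5.69 (3.31 to 10.6). In Kupffer cell-like cells, the resident macrophages of the sinusoid, it was 0.0823 and 0.181 (ratio 2.20, 1.28 to 3.93). The lymphoid level stood at 0.0382 and 0.0530, below both fibrosis values. The monocyte, macrophage and dendritic cell-like class was built differently in the libraries, from 1 normal cluster of 496 cells led by Ccl17 and Mpo, and from fibrosis clusters of 527 cells led by Gpnmb and of 174 cells led by Ifnb1 with the dendritic cell marker Xcr1. Within it, the highest Pdgfa level of fibrotic liver lay in 108 macrophage-like cells led by F7, Il7r, Fabp5 and Spp1, at 0.381 (0.306 to 0.468, 90 UMIs).

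Plasmacytoid dendritic cell (pDC)-like cells also held Pdgfa above the lymphoid level in normal liver, at 0.253 (0.182 to 0.343, 41 UMIs) against 0.0856 (0.0427 to 0.153) in fibrosis, a ratio of 0.338 (0.157 to 0.670). Pdgfa in hepatocyte-like cells was 0.0567 and 0.228 UMIs per 10000 (ratio 4.01, 2.03 to 8.05), with 40.9% of the 22 fibrosis UMIs in 3 cells.

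**Figure D2:**
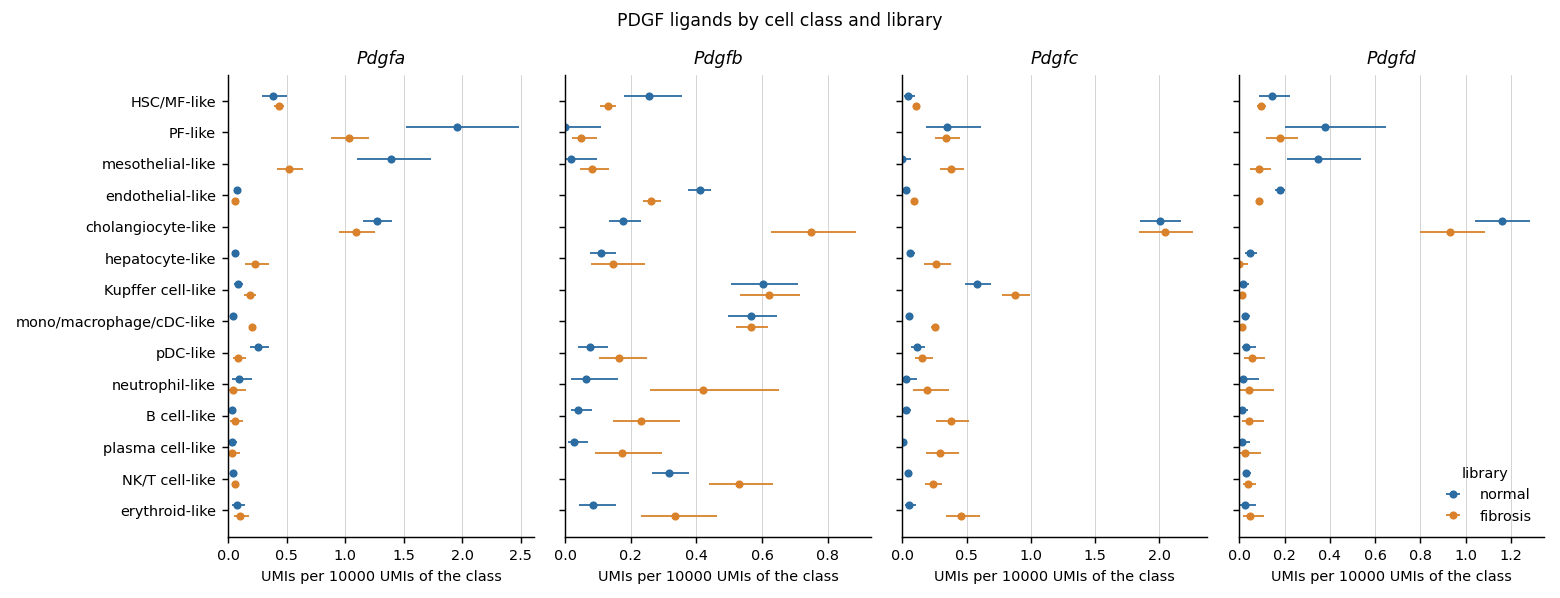
Points give each ligand's UMIs per 10000 UMIs of a cell class (x axis, linear, a separate scale per ligand) for the normal (blue) and fibrosis (orange) library, with exact Poisson 95% intervals. Pdgfc and Pdgfd peaked in cholangiocyte-like cells in both libraries, Pdgfa in PF-like cells of normal liver at 1.96, and Pdgfb was spread over macrophage-like, endothelial-like and NK/T cell-like classes, with its highest fibrosis level among the classes drawn, 0.749, in cholangiocyte-like cells.

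Pdgfb (ENSMUSG00000000489, chr15:79995874-80014977, minus strand) was highest in macrophage-rich and endothelial-like classes in normal liver. In fibrotic liver cholangiocyte-like cells had the highest level of the named classes, in which NK and T cell-like cells were merged. NK cell-like cells taken apart held 0.807. The Pdgfb level was 0.602 (0.506 to 0.711) and 0.620 (0.534 to 0.717) UMIs per 10000 in Kupffer cell-like cells, and 0.567 in both libraries (0.495 to 0.647 and 0.521 to 0.617) in the monocyte, macrophage and dendritic cell-like class. The levels of either class differed by less than counting error between the libraries, with ratios of 1.03 (0.823 to 1.29) and 1.0 (0.855 to 1.17), and in each library their intervals overlapped. With the background of the same library subtracted, however, the Kupffer cell-like ratio was 0.487 for the lymphoid level and 0.693 for the B cell-like level, on the other side of 1. Per cell the Kupffer cell-like ratio was 2.32, as the median cell had 4605.5 and 10636.5 UMIs. In the normal library 203 of the 442 Kupffer cell-like cells formed a cluster with a median of 1714 UMIs that held 0.328 of Pdgfb, against 0.681 in the other 239. The highest level among the myeloid and endothelial sub-clusters of normal liver lay in 55 macrophage-like cells led by Mmp13, Tmem119 and Creb5, with the fractalkine receptor gene Cx3cr1 also among their leading genes, at 1.85 (1.38 to 2.42, 52 UMIs). In fibrotic liver 87 cells led by Cd207, Slco2b1 and Adcy3 stood highest among the myeloid sub-clusters, at 0.878 (0.734 to 1.04).

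Endothelial-like cells held 0.409 (0.375 to 0.446) UMIs of Pdgfb per 10000 in normal and 0.263 (0.236 to 0.291) in fibrotic liver, a ratio of 0.641 (0.559 to 0.734). Per cell the ratio was 0.923, with 0.236 UMIs in normal and 0.218 in fibrotic liver. Their share of all Pdgfb UMIs was 41.6% and 19.97%, and that of the monocyte, macrophage and dendritic cell-like class 17.6% and 30.3%. The normal level was above that of B cell-like cells (0.0393), while the fibrosis level lay within the B cell-like interval (0.145 to 0.349), with 0.218 UMIs per cell against 0.0546. Within the endothelium Pdgfb was uneven. In normal liver 2 portal vessel-like sub-clusters stood high, with 1.06 (0.884 to 1.26) in 163 cells led by Npr3, Col8a1 and Lox, and 0.825 (0.679 to 0.992) in 220 cells led by Igfbp5 and Adgrg6, whereas 229 cells of the same name led by Esm1 held 0.231. A sub-cluster of 14 cells led by Mmrn1 and Ccl21a held 0.929 from 9 UMIs. The sinusoidal endothelial (LSEC)-like sub-clusters of normal liver held 0.184 and 0.268, and no fibrosis sub-cluster took that name. Before sub-clustering, an LSEC-like cluster made up 1261 normal and 950 fibrosis cells of the endothelial-like class, and the rest were portal vessel-like. The class ratio thus covered a mix of endothelial cells and need not hold for each type. In fibrotic liver 97 portal vessel-like cells led by Col8a1, Gja5 and Npr3 held 0.749 (0.575 to 0.958), and 140 unnamed cells led by Nrg1 and Cd200, with a median of 2157.5 UMIs, held 0.801 (0.536 to 1.15).

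Cholangiocyte-like cells had the largest difference of Pdgfb between the libraries among classes with at least 20 UMIs in each library, at 0.177 (0.134 to 0.230) and 0.749 (0.628 to 0.887) UMIs per 10000, a ratio of 4.23 (3.08 to 5.88). A UMI was seen in 19.4% of 237 and 48.4% of 91 cells, and after thinning to 1000 UMIs per cell in 1.27% and 9.89%. In fibrosis 16 of 135 UMIs came from 1 cell and 26.7% from 3. Among lymphocytes, B cell-like cells held 0.0393 and 0.231 UMIs per 10000, T cell-like cells 0.254 and 0.261, and NK cell-like cells 0.361 and 0.807 (ratio 2.24, 1.64 to 3.05). In normal liver both exceeded the B cell-like level, so B cell-like cells were taken as the background of this gene. In fibrotic liver the T cell-like level lay within the B cell-like interval (0.145 to 0.349) and the NK cell-like level above it. PF-like cells had no Pdgfb UMI in normal liver, where a count of 0 in 44 cells allows up to 6.82% of cells with a UMI, and 7 UMIs in fibrotic liver.

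Pdgfc and Pdgfd were ligands of cholangiocyte-like cells, the epithelium of the bile ducts. Pdgfc (ENSMUSG00000028019, chr3:81036416-81214040, plus strand) reached 2.01 (1.85 to 2.17) UMIs per 10000 in normal and 2.04 (1.84 to 2.26) in fibrotic liver, a ratio of 1.02 (0.893 to 1.16). A UMI was seen in 81.4% and 92.3% of these cells, against 1.39% and 8.09% of lymphoid cells, and thinned to 1000 UMIs the shares were 17.3% and 22.0% against 0.316% and 3.67%. The level thus differed by less than counting error while 237 such cells were recovered from normal and 91 from fibrotic liver. Their share of all Pdgfc UMIs was 67.6% and 25.2%.

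Kupffer cell-like cells were the next source of Pdgfc, at 0.584 (0.490 to 0.692) and 0.879 (0.775 to 0.992) UMIs per 10000, a ratio of 1.5 (1.22 to 1.86). Within the macrophage lineage the sub-cluster named Kupffer cell-like was the highest in both libraries, with 0.740 and 1.02. In all other classes Pdgfc was at most 0.350 in normal liver, the level of PF-like cells. In fibrotic liver the lymphoid level itself stood at 0.278 (0.223 to 0.342), against 0.0399 in normal liver, and that of erythroid-like cells at 0.457. The fibrosis levels of the monocyte, macrophage and dendritic cell-like class (0.253), of PF-like cells (0.339, 0.252 to 0.446) and of mesothelial-like cells (0.378, 0.292 to 0.480) were at or within counting error of that lymphoid level, although these cells held 0.348, 0.671 and 0.825 UMIs per cell against 0.0828 in lymphoid cells. Mesothelial-like cells had no Pdgfc UMI in normal liver, so against a floor of 3 counts over the class (0.0521 UMIs per 10000) their fibrosis level of 0.378 was at least 7.24-fold higher, the counting error of that level not included. The class was uneven in fibrotic liver. Its mesothelial-like sub-cluster of 48 cells held 0.686 (0.523 to 0.883, 60 UMIs) of Pdgfc, above the lymphoid level. A sub-cluster of 29 cells led by Cxcl5 held 0.0827.

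Pdgfd (ENSMUSG00000032006, chr9:6168584-6378850, plus strand) reached 1.16 (1.04 to 1.28) UMIs per 10000 in cholangiocyte-like cells of normal and 0.932 (0.797 to 1.08) of fibrotic liver. The ratio was 0.805 (0.667 to 0.969) per 10000 UMIs and 1.20 per cell, so its direction depended on the scale. PF-like cells held 0.380 and 0.179 (ratio 0.473, 0.236 to 0.998, and 1.20 per cell), mesothelial-like cells 0.348 and 0.0858 (ratio 0.247, 0.118 to 0.507), and endothelial-like cells 0.178 and 0.0880 (ratio 0.493, 0.392 to 0.617). HSC/MF-like cells held 0.146 and 0.0962 (ratio 0.658, 0.402 to 1.13, and 1.30 per cell). The endothelial ratio was below 1 per cell too, at 0.710. Per 10000 UMIs these classes other than HSC/MF-like cells were lower in the fibrosis library beyond counting error, while the lymphoid level was 0.0243 and 0.0406. Without the 5% of cells with the highest Scrublet scores the cholangiocyte-like interval reached 1 (0.823, 0.672 to 1.004). The portal vessel-like sub-clusters with Npr3 and Col8a1 had the highest Pdgfd of the endothelial sub-clusters in both libraries, at 0.459 and 0.273. In Kupffer cell-like cells, in contrast to Pdgfb and Pdgfc, Pdgfd was at 0.0173 and 0.0101. The Pdgfd locus overlaps Ddi1 on the opposite strand, and those of Pdgfa, Pdgfb, Pdgfc and Pdgfra overlap noncoding genes on the opposite strand.

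At full depth, single cholangiocyte-like cells often held several ligands. Pdgfc and Pdgfd were seen together in 56.5% of cells of normal and 52.7% of fibrotic liver, and Pdgfa and Pdgfc together in 54.0% and 57.1%. At 1000 UMIs per cell these shares were 0.844% and 2.20%, and 2.53% and 0% (0 of 91 cells, which allows up to 3.30%). Because the 3 ligands above 0.9 UMIs per 10000 in these cells shared this class, their promoters are shown, from 250 bases before to 50 after the transcription start in RefSeq (GRCm38.p6), with GC boxes (GGGCGG, either strand) and TATA boxes (TATAAA, either strand) in capitals.
Pdgfa, chr5:138994895-138995194, minus strand: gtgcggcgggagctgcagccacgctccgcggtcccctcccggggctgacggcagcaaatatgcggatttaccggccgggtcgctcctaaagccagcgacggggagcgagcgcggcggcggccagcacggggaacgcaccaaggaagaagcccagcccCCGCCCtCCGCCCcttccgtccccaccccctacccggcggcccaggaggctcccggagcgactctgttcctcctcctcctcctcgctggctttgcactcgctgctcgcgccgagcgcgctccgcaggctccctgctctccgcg
Pdgfc, chr3:81036166-81036465, plus strand: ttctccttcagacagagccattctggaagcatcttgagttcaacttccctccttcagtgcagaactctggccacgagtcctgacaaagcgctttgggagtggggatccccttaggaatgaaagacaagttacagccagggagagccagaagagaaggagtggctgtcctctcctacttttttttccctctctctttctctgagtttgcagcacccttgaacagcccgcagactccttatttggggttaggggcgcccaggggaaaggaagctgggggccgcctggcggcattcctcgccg
Pdgfd, chr9:6168236-6168535, plus strand: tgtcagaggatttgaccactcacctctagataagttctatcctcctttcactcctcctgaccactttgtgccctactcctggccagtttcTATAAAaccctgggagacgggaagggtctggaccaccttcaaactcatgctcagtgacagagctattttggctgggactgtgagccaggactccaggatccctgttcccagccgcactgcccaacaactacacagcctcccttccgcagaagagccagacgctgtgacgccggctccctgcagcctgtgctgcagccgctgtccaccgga
The windows did not look alike. This Pdgfa window, 1 of 2 that RefSeq gives, held 2 GC boxes and 37 CpG, more than 94.4% of all 32851 promoters, whose median was 7. The Pdgfc window held 8 CpG and neither motif, and the Pdgfd window held 8 CpG and 1 TATA box. Of all promoters 35.7% held the GC box and 13.6% the TATA box, so these matches describe the sequences and name no factor.

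Pdgfra (ENSMUSG00000029231, chr5:75152292-75198215, plus strand) encodes PDGFRα, which binds Pdgfa, Pdgfb and Pdgfc products. It was highest in PF-like cells in both libraries, at 5.64 (4.87 to 6.49) and 5.83 (5.45 to 6.23) UMIs per 10000, a ratio of 1.03 (0.884 to 1.22). HSC/MF-like cells held 1.96 (1.73 to 2.21) and 2.03 (1.94 to 2.12), a ratio of 1.04 (0.911 to 1.18). Per 10000 UMIs neither class differed beyond counting error, while per cell the ratios were 2.63 and 2.05 with the deeper fibrosis cells. The PF-like level exceeded the HSC/MF-like level in both libraries. A UMI was seen in 93.2% and 100% of PF-like and in 76.5% and 81.5% of HSC/MF-like cells, against 0.126% and 3.91% of lymphoid cells. Thinned to 1000 UMIs these shares were 50.0% and 44.7%, 16.8% and 18.3%, and 0% (up to 0.190%) and 1.88%.

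Mesothelial-like cells, which cover the liver surface, were where Pdgfra differed most between the libraries among the mesenchymal classes. They held 9 UMIs in 45 cells of normal liver, 7 of them in 1 cell, and 751 UMIs in 80 cells of fibrotic liver. The levels were 0.156 (0.0715 to 0.297) and 4.30 (4.0 to 4.62) UMIs per 10000, a ratio of 27.5 (14.4 to 60.3). The share of thinned cells with a UMI was 2.22% and 29.5%. Much of the fibrosis signal lay in a sub-cluster of 29 cells led by Cxcl5, Clca3a2 and Fndc1, at 7.56 (6.99 to 8.17). Without the cells of that sub-cluster, 52 mesothelial-like cells held 1.84 (1.58 to 2.14), and the ratio was 11.8 (6.08 to 26.2). The 48 cells of the mesothelial-like sub-cluster itself held 1.92 (1.64 to 2.23). Of the HSC/MF marker list these 48 cells held 102 UMIs per 10000, against 263 in the Cxcl5-led cells, which took no name as a sub-cluster. Over the whole mesothelial-like class that list stood at 79.7 in normal and 185 in fibrotic liver. Its part in the Pdgfra ratio was not tested.

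**Figure D3:**
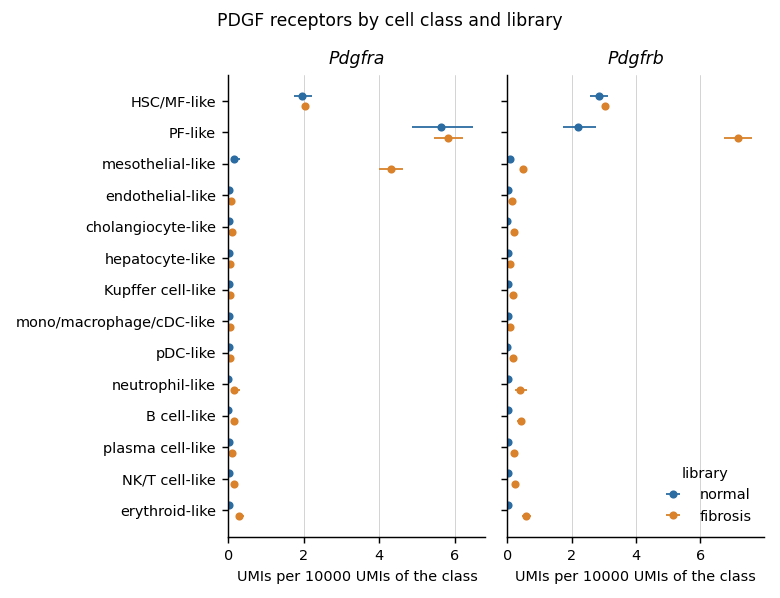
Points give the UMIs per 10000 UMIs of each cell class (x axis, linear, a separate scale per gene) of Pdgfra and Pdgfrb in the normal (blue) and fibrosis (orange) library, with exact Poisson 95% intervals. HSC/MF-like and PF-like cells stand apart from the other classes in both libraries for Pdgfrb, Pdgfra of mesothelial-like cells lies at 0.156 and 4.30, and Pdgfrb of PF-like cells at 2.19 and 7.17.

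Pdgfrb (ENSMUSG00000024620, chr18:61045150-61085061, plus strand) encodes PDGFRβ, the receptor of the Pdgfb and Pdgfd products and a common pericyte marker. In PF-like cells it stood at 2.19 (1.72 to 2.75) UMIs per 10000 in normal and 7.17 (6.74 to 7.61) in fibrotic liver, a ratio of 3.27 (2.59 to 4.19), and of 8.32 per cell. The thinned share of cells with a UMI was 25.0% and 52.6%. The HSC/MF marker list of these PF-like cells stood at 378 and 664 UMIs per 10000. Of the 76 fibrosis cells 59 lay in the PF-like sub-cluster, 10 in a sub-cluster led by Ccnb1 and 7 in one led by Ankrd1. The part of these differences in the Pdgfrb ratio was not tested. In HSC/MF-like cells Pdgfrb stood at 2.84 (2.57 to 3.14) and 3.04 (2.93 to 3.16), a ratio of 1.07 (0.962 to 1.19). The PF-like and HSC/MF-like intervals overlapped in normal liver, while in fibrosis the PF-like level lay above the HSC/MF-like one. Mesothelial-like cells held 0.0869 (5 UMIs) and 0.492 (0.394 to 0.608), a ratio of 5.66 (2.33 to 17.9), with 45.3% of the 86 fibrosis UMIs in 3 cells. The Cxcl5-led sub-cluster held 0.662 (56 UMIs). The mesothelial-like sub-clusters held 0.0897 (0.0291 to 0.209) in normal and 0.137 (0.0709 to 0.240) in fibrotic liver, intervals that overlapped. In fibrotic liver B cell-like and erythroid-like cells held 0.409 and 0.581 of Pdgfrb.

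The PF-like values depended on a class that was not always found. Over the other settings tried for filters, clusters and names, PF-like cells were named in both libraries only at the higher clustering resolution, where the ratios were 0.530 for Pdgfa, 0.943 for Pdgfra and 3.20 for Pdgfrb.

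The receptor mix also differed between the classes. Pdgfra made up 40.8% (37.0 to 44.7) and 40.0% (38.6 to 41.4) of the receptor UMIs of HSC/MF-like cells. In PF-like cells it made up 72.0% (66.2 to 77.3) in normal and 44.9% (42.6 to 47.1) in fibrotic liver. In mesothelial-like cells it was 9 of 14 UMIs in normal liver and 89.7% (87.5 to 91.7) in fibrosis. Both receptors were seen in the same cell in 72.3% and 78.8% of HSC/MF-like and in 70.5% and 100% of PF-like cells. At 1000 UMIs per cell these shares were 8.40% and 5.78%, and 9.09% and 28.9%. PF-like cells also held Pdgfa together with Pdgfra, in 47.7% and 65.8% of cells, or 9.09% and 1.32% after thinning.

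Sub-clusters showed how the receptors varied inside the mesenchymal classes. In normal liver 61 cells led by Ighm, Ccl4 and Ccl5, genes of immune cells, held 3.01 (2.51 to 3.58) UMIs of Pdgfra and 4.37 (3.76 to 5.04) of Pdgfrb per 10000, and 44 PF-like cells held 5.43 and 2.0. In fibrotic liver 68 cells led by S100a8, S100a9 and Il1b, genes of neutrophils and other myeloid cells, held 2.55 (2.13 to 3.02) and 6.19 (5.53 to 6.90), and 61 PF-like cells held 5.94 and 7.68. Both immune-led groups, of which 60 and 67 cells belonged to the HSC/MF-like class, also held 481 and 418 UMIs of the HSC/MF marker list per 10000. A like Pdgfrb level, 6.31 (5.86 to 6.79), lay in 75 fibrosis cells led by Ankrd1, Cyp2e1 and Ogn, which also held 1.05 UMIs of Pdgfa. The Cxcl5-led cells held high Pdgfra and low Pdgfrb, 7.56 and 0.662, and the 48 mesothelial-like cells of fibrotic liver also held more Pdgfra than Pdgfrb, 1.92 and 0.137.

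Other sub-clusters carried LSEC or macrophage markers. In normal liver 2 such groups, of 26 cells led by Mmp12 and of 33 cells led by Ltf, held 176 and 130 UMIs of the LSEC marker list per 10000, against 24.6 in the Ighm-led cells. Their Pdgfra levels were 1.32 and 1.78 and their Pdgfrb levels 1.68 and 2.69. In fibrotic liver 3 groups led by Iqgap3, Mecom and Esm1 held 106 to 210 UMIs of LSEC markers, and 58 cells led by Jchain held 73.8 of macrophage markers. The Mecom-led cells had the lowest Pdgfra of these, 0.641, and 1.73 of Pdgfrb. With the sub-clusters rich in LSEC or macrophage markers left out, but not the Ighm-led and S100a8-led ones, HSC/MF-like cells (60 and 185) held 2.88 and 3.33 of Pdgfra (ratio 1.16, 0.957 to 1.41), and 4.32 (3.72 to 4.99) and 4.71 of Pdgfrb (ratio 1.09, 0.934 to 1.28). The normal Pdgfrb interval then no longer overlapped that of PF-like cells (1.72 to 2.75), whose values were unaffected, so the HSC/MF-like level was the higher in normal and the PF-like level in fibrotic liver. Pdgfb in HSC/MF-like cells changed more, from 0.256 with to 0.0236 UMIs per 10000 without these sub-clusters in normal liver, and from 0.129 to 0.0687 in fibrotic liver. No doublets were removed here, and whether the deposited cells had already been filtered for them is not given in the sources used here. The median Scrublet doublet score was 0.0960 in HSC/MF-like and 0.0901 in mesothelial-like cells of fibrotic liver, the highest of its classes, against 0.0499 over all its kept cells. In the sub-clusters rich in LSEC or macrophage markers it was 0.0970 and 0.151 in normal and from 0.0981 to 0.161 in fibrotic liver, against 0.0353 to 0.0700 and 0.0553 to 0.0981 in the other mesenchymal sub-clusters, the Cxcl5-led cells being the highest of the latter. The part of doublets in the receptor values was not tested beyond leaving these sub-clusters out.

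**Figure D4:**
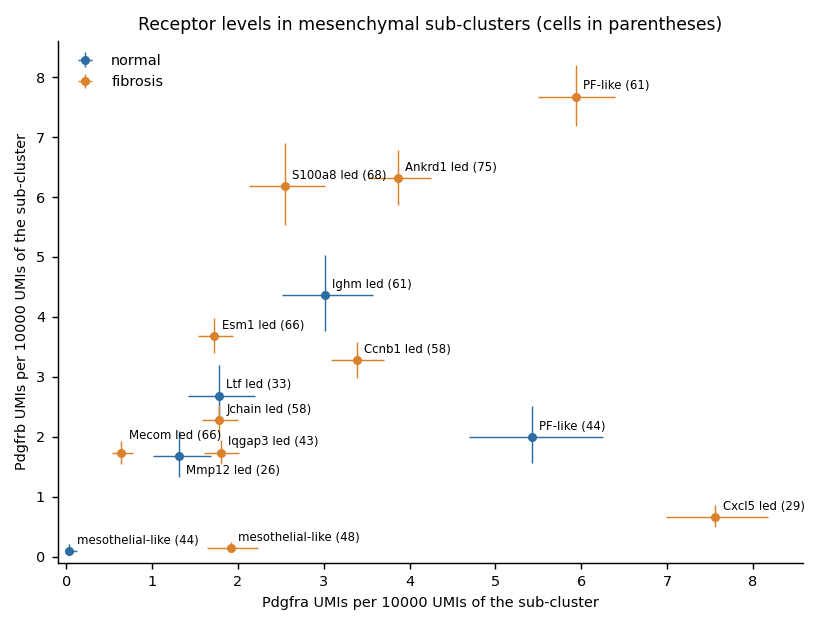
Each point is a sub-cluster of the mesenchymal cells, named by its markers or by its leading gene with its number of cells in parentheses, with Pdgfra on the x axis and Pdgfrb on the y axis, both in UMIs per 10000 on linear scales, and exact Poisson 95% intervals. PF-like cells lie at 5.43 and 2.0 in normal (blue) and at 5.94 and 7.68 in fibrotic liver (orange), and the Cxcl5-led cells lie at 7.56 and 0.662.

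Outside the mesenchymal classes receptor RNA was near 0 in normal liver and low but general in fibrotic liver. Endothelial-like cells held 0.0155 and 0.0771 UMIs of Pdgfra and 0.00773 and 0.143 of Pdgfrb per 10000, the latter a ratio of 18.5 (9.82 to 39.1). Lymphoid cells held 0.00347 and 0.143 of Pdgfra and 0.0104 and 0.281 of Pdgfrb, ratios of 41.3 (10.8 to 352) and 27.0 (11.9 to 75.4). The fibrosis levels of endothelial-like, Kupffer cell-like and monocyte, macrophage and dendritic cell-like cells, from 0.0435 to 0.0771 for Pdgfra and from 0.0932 to 0.164 for Pdgfrb, all lay below the lymphoid ones. Per cell the order turned, with 0.0639, 0.0591 and 0.0599 UMIs of Pdgfra in these 3 classes against 0.0428 in lymphoid cells, and 0.118, 0.193 and 0.128 of Pdgfrb against 0.0837. The HSC/MF marker list, summed over lymphoid cells, stood at 2.08 and 18.8 UMIs per 10000. Its part in the receptor values was not tested. Pdgfra made up 33.8% (25.9 to 42.4) of the receptor UMIs of fibrosis lymphoid cells and 35.1% (29.7 to 40.8) of those of endothelial-like cells, within counting error of each other. Over all cells outside the mesenchymal classes, which include both, the share was 32.1% (29.1 to 35.2). Over the mesenchymal classes of that library it was 46.7% (45.6 to 47.9).

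In the normal endothelium 10 of the 20 Pdgfra UMIs lay in 74 cells led by Cxcl13, Penk and Acta2, 9 of them in 1 cell. In fibrotic cholangiocyte-like cells, 23 of the 37 Pdgfrb UMIs came from 1 cell. Those receptor counts therefore rested on few cells.

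**Figure D5:**
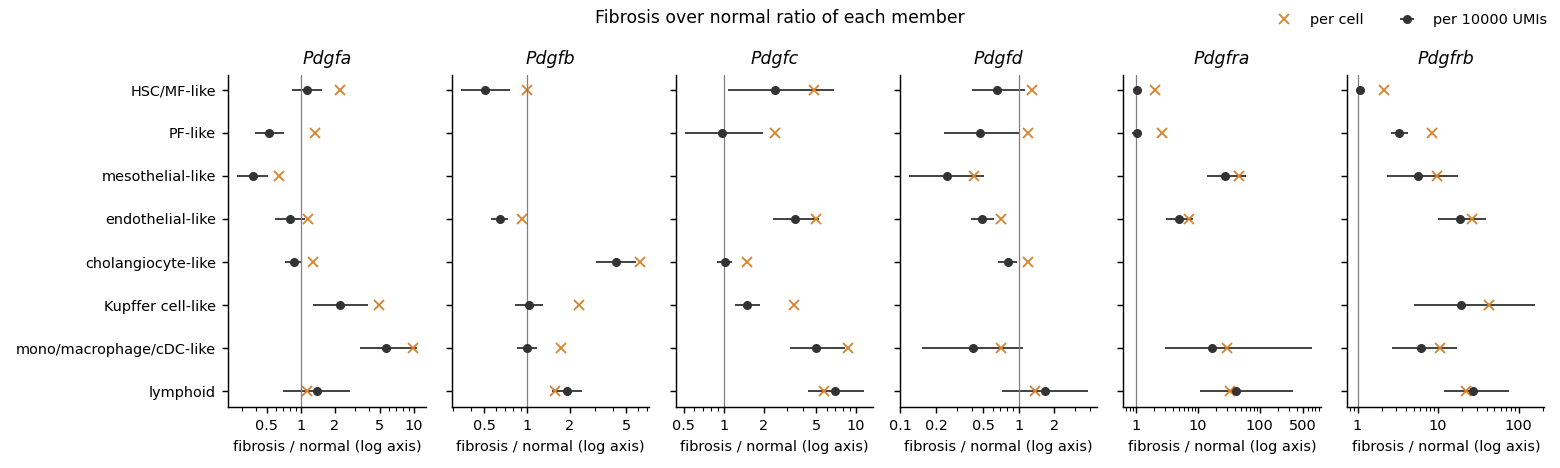
Each panel gives, for 1 gene, the fibrosis over normal ratio (x axis, log scale) in 7 mesenchymal, endothelial, epithelial and myeloid classes and in lymphoid cells, as black points per 10000 UMIs with exact conditional 95% intervals and orange crosses per cell. Classes with under 20 UMIs over both libraries, or with none in the normal one, are left blank. In PF-like cells Pdgfa lies at 0.527 per 10000 UMIs and 1.34 per cell, on both sides of the line at 1, and lymphoid cells have Pdgfra and Pdgfrb ratios of 41.3 and 27.0.

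To place the members among all genes, ratios of at least 2 or at most 0.5 were counted among genes with at least 20 UMIs over both libraries. In HSC/MF-like cells 9.50% of 12563 genes were higher and 5.92% lower in fibrosis, and of the 6 members 1 (Pdgfc, 2.43, 1.08 to 6.79) was higher and 0 lower. That Pdgfc level of fibrotic liver, 0.107 UMIs per 10000, lay below the lymphoid level of 0.278, with 0.243 UMIs per cell against 0.0828. Without the sub-clusters rich in LSEC or macrophage markers the Pdgfc ratio of HSC/MF-like cells was 1.28 (0.390 to 6.61), under the limit of 2. In PF-like cells 17.0% were higher and 7.90% lower, and of 5 members Pdgfrb was higher and Pdgfd lower. In mesothelial-like cells 17.8% were higher and 7.65% lower, and all 5 members tested passed. Pdgfc, Pdgfra and Pdgfrb were higher and Pdgfa and Pdgfd lower. In fibrosis the Pdgfc level of the class was within counting error of the lymphoid level, and that of its mesothelial-like sub-cluster lay above it. The Pdgfrb intervals of the mesothelial-like sub-clusters overlapped between the libraries. The mesenchymal classes thus ranged from 1 of 6 members in HSC/MF-like cells to 5 of 5 in mesothelial-like cells.

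In endothelial-like cells 7.90% of genes were higher and 9.14% lower, and of 6 members 3 were higher (Pdgfc, Pdgfra and Pdgfrb, each at or below the lymphoid level in fibrosis) and 1 lower (Pdgfd). In cholangiocyte-like cells 5.19% were higher and 5.61% lower, with 2 of 5 members higher, Pdgfb and Pdgfrb. In Kupffer cell-like cells 5.62% were higher and 6.83% lower, with 2 of 4 members higher, Pdgfa and Pdgfrb. In the monocyte, macrophage and dendritic cell-like class 8.86% were higher and 12.8% lower, with 4 of 6 members higher (Pdgfa, Pdgfc, Pdgfra and Pdgfrb) and Pdgfd lower. That Pdgfd ratio, 0.409 (0.153 to 1.09), rested on 10 UMIs in each library, its interval reached 1, and its fibrosis level of 0.0104 lay below the lymphoid level of 0.0406. Among the members called higher in these 4 classes, 3 ligand values stood above the lymphoid or B cell-like background, namely Pdgfb in cholangiocyte-like cells and Pdgfa in both myeloid classes.

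The other genes of the pathway were taken from a list of 31 proteases, binding proteins, adaptors and negative regulators. In HSC/MF-like cells 29 had enough UMIs, of which 4 were higher and 0 lower in fibrosis, beside 9.50% and 5.92% of all genes, with a median ratio of 1.08 against 1.04 over all genes tested. Plat, the tissue plasminogen activator that can cleave the Pdgfc product, stood at 0.0804 and 0.929 UMIs per 10000 (ratio 11.5, 6.42 to 23.2). Sparc, a matricellular protein that binds PDGF, stood at 25.8 and 75.5 (ratio 2.93, 2.83 to 3.03), and Pdgfrl at 0.110 and 0.225 (ratio 2.05, 1.22 to 3.73). None of the adaptors or enzymes of the receptor tail passed either limit.

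In PF-like cells 7 of 28 pathway genes were higher and 1 lower, beside 17.0% and 7.90% of all genes tested. In mesothelial-like cells 5 of 28 were higher, near the 17.8% of all genes, and 0 lower. In endothelial-like cells 3 of 28 were higher, beside 7.90%, and 0 lower. In cholangiocyte-like and Kupffer cell-like cells 3 of 27 were higher in each, beside 5.19% and 5.62%, and 0 lower. In the monocyte, macrophage and dendritic cell-like class 7 of 30 were higher and 1 lower, beside 8.86% and 12.8%. Sparc was among the higher genes in all 7 classes, but its lymphoid level also stood at 1.63 (1.53 to 1.74) and 6.61 (6.33 to 6.89) UMIs per 10000. Its fibrosis levels of 3.03 in Kupffer cell-like cells and 2.98 in the monocyte, macrophage and dendritic cell-like class lay below that lymphoid level, and those of the other 5 classes, from 10.4 to 130, above it.

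Across the 14 classes of both libraries (28 points) each member was set beside the other genes by Pearson correlation of log2(UMIs per 10000 + 0.1). Only genes that reached 1 UMI per 10000 in at least 1 point were compared, leaving out mitochondrial, ribosomal protein and hemoglobin genes, which left 5483 genes for Pdgfb and 5482 for the other members. These points share libraries, depth and free RNA, so r is a description. The most alike genes were Peg3, Snhg18 and Bicc1 for Pdgfa (r = 0.919, 0.912 and 0.912), Tmem51, Id2 and Arl4c for Pdgfb (0.811, 0.767 and 0.764), Pld1, Cadm1 and Anxa4 for Pdgfc (0.844, 0.827 and 0.819), and Ptpn21, Glis2 and Enpp5 for Pdgfd (0.909, 0.898 and 0.879). For the receptors they were Pcdh7, Des and Tpm2 for Pdgfra (0.978, 0.975 and 0.960) and Postn, Tcf21 and Angptl2 for Pdgfrb (0.982, 0.975 and 0.965). Des, the intermediate filament gene desmin, was among the markers that named the HSC/MF-like class. Between the members r was 0.912 for Pdgfra with Pdgfrb and 0.792 for Pdgfa with Pdgfd. Among the genes compared, Pdgfb had the lowest best match of the 6 members.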

How the data were processed

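Nonparenchymal cells of 1 normal and 1 fibrotic liver were profiled by 10x Chromium v3 3′ scRNA-seq. Per the labels and methods, the authors used Cell Ranger 3.0.1 with mm10 and deposited counts of UMIs per gene and cell, not normalized. They also state that doublets were excluded with Scrublet, but whether before deposit is not given in the sources used here. Each of the 2 libraries was one group, with 1 mouse, 44062632 and 53288463 UMIs, and no test between them.

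From the deposited counts, cells with under 10% mitochondrial UMIs and over 200 genes were kept, scaled to 10000 UMIs, ln(1 + x) transformed and clustered per library with scanpy 1.11.5 (2000 variable genes without the 6 members, 10 principal components, 20 neighbours, Leiden resolution 0.8). A cluster took the name with most markers among its 10 leading genes. It needed at least 1 marker there and at least 3 markers at over 2 times the level of the other cells. For sub-clusters those 3 markers had only to exceed the level of the other cells of the lineage. Names were merged into 14 classes after the clusters were seen, since periportal sinusoidal cells took the portal vessel name and myeloid clusters were mixed. Unnamed clusters held 283 and 356 cells. Scrublet called 1 cell per library in the deposited data, so no doublet call was used. Shares of cells were also taken after thinning to 1000 UMIs, and a count of 0 was read as at most 3 counts. Alternatives covered filters, clustering, naming, scale and background. Gene positions came from GENCODE (GRCm38) and promoters from RefSeq. The named genes were the 6 members, pathway genes past 2 times in HSC/MF-like cells, and the 3 genes most correlated with each member. The values of 1 pathway gene past that limit are not reported here. The members and lists were chosen with earlier results of these data known.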

Additional observations from a re-analysis of the deposited data

Results flagged for a closer look

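Pdgfa differed in opposite directions in different classes. The fibrosis over normal ratio per 10000 UMIs was 0.527 in PF-like, 0.374 in mesothelial-like and 0.338 in pDC-like cells, against 4.01 in hepatocyte-like, 2.20 in Kupffer cell-like and 5.69 in monocyte, macrophage and dendritic cell-like cells. The intervals of these 6 ratios did not reach 1, but that of PF-like cells did without the 3 cells with most Pdgfa (0.706, 0.489 to 1.04), and the PF-like ratio was 1.34 per cell. Pdgfb also differed both ways, at 0.641 in endothelial-like and 4.23 in cholangiocyte-like cells. With 1 library per condition these differences between classes were not tested.

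The cells over the mitochondrial limit, which entered no comparison, held UMIs of all 6 members. In the normal library 659 such cells held 24 UMIs of Pdgfa, 59 of Pdgfb, 34 of Pdgfc, 24 of Pdgfd, 18 of Pdgfra and 14 of Pdgfrb. In the fibrosis library 305 such cells held 32, 77, 62, 6, 71 and 123 UMIs in the same order.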

How the results depend on the processing

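No paired analysis was possible because each condition had 1 library, which also left no replicate to leave out. Of 43 planned recomputed ratios 34 lay within the interval of the value reported and 8 on the other side of 1, and of 44 planned percentages 33 lay within it. Of those added after the data were seen, 8 of 11 ratios and 0 of 4 percentages did. These 8 include the ratios of PF-like, Kupffer cell-like and cholangiocyte-like cells without the sub-clusters rich in LSEC or macrophage markers. That step removed no cell of these classes, so their ratios could not change and tested nothing. Of the added ratios that could change, 1.16 for Pdgfra and 1.09 for Pdgfrb in HSC/MF-like cells lay within their intervals. The values 11.8, 0.923 and 0.693, described below, did not. Besides 4 values given next, the ratios on the other side of 1 were 0.965 with no mitochondrial limit and 0.917 with 20 principal components for Pdgfb in Kupffer cell-like cells, 0.898 with the lymphoid level subtracted for Pdgfc in cholangiocyte-like cells, and 0.943 at the higher resolution and 0.934 as a mean over cells for Pdgfra in PF-like cells. Per cell instead of per 10000 UMIs, Pdgfa in PF-like cells reversed to 1.34 and Pdgfd in cholangiocyte-like cells to 1.20, and the ratios were 2.32 for Pdgfb in Kupffer cell-like cells, 1.51 for Pdgfc in cholangiocyte-like cells, 2.63 for Pdgfra and 8.32 for Pdgfrb in PF-like cells, and 0.923 for Pdgfb in endothelial-like cells. These shifts follow from the deeper fibrosis cells. For Pdgfb in Kupffer cell-like cells the ratio was 0.487 with the lymphoid level subtracted, 0.693 with the B cell-like level subtracted (added after the data were seen) and 1.39 as a mean over cells, a scale on which Pdgfd in cholangiocyte-like cells gave 0.645. At a mitochondrial limit of 5% the mesenchymal share was 95.3% of normal Pdgfra, 82.4% of normal Pdgfrb and 89.2% of fibrosis Pdgfrb UMIs. Without the sub-clusters rich in LSEC or macrophage markers it was 88.0% and 89.4% for Pdgfra and 87.1% and 79.4% for Pdgfrb. Without the Cxcl5-led sub-cluster the mesothelial-like Pdgfra ratio was 11.8. Thinned to 2000 UMIs, more cells had a UMI by construction, with Pdgfb in 10.0% and 11.1% of Kupffer cell-like cells, Pdgfc in 34.6% and 36.4% and Pdgfd in 17.9% of cholangiocyte-like cells (the last in normal liver), and Pdgfra in 70.5% and 61.8% and Pdgfrb in 76.3% of PF-like cells (the last in fibrosis). No value exists for PF-like cells at the mitochondrial limit of 5% or with no limit, at the lower clustering resolution, with more principal components, without the cells of highest doublet score or under the other naming rule, because the class was not named in both libraries. The same held for Kupffer cell-like cells at the 5% limit, at the lower resolution and without the cells of highest doublet score, and for cholangiocyte-like cells at the 5% limit. The normal PF-like and mesothelial-like classes held under 50 cells each, and their values rest on that number.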

Other observations

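A fibrosis cluster of 356 cells that took no name, with Olr1 and Clec4e among its leading genes, held 0.741 (0.640 to 0.854) UMIs of Pdgfb per 10000, against 0.620 (0.534 to 0.717) in Kupffer cell-like cells of that library. A fibrosis cluster of 106 NK cell-like cells held 1.23 of Pdgfb. Neutrophil-like cells held 0.0624 and 0.421 of Pdgfb (4 and 20 UMIs), with 55.0% of the fibrosis UMIs in 3 cells.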
